A study of Mus musculus with 4 samples.

Results

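The genes described here are 9 transcription factor (TF) genes of the hair cell (HC) lineage, *Atoh1*, *Pou4f3*, *Gfi1*, *Barhl1*, *Lhx3*, *Insm1*, *Ikzf2*, *Rfx1* and *Rfx3*, out of 23997 genes in the RNA-Seq table. They were taken by name, with earlier results of these data known, and each was found as 1 row by its gene symbol. The RNA-Seq experiment compared Lgr5+ progenitors with Lgr6+ progenitors from the cochlea of C57BL/6 mice at postnatal day 3. The Lgr5+ progenitors were EGFP+ cells sorted from Lgr5-EGFP-IRES-creERT2 mice, and the Lgr6+ progenitors were EGFP+ cells sorted from Lgr6-EGFP-IRES-CreERT2 mice. All cells were therefore gated on a reporter driven from an Lgr locus and not on any HC protein, and the populations came from different mouse lines. In the paper, Lgr6 at this age marked only some inner pillar cells, and these belong to the broader Lgr5+ population. The comparison is thus of a subset with a broader mix of cells. The labels list 2 libraries per population, whereas the methods describe 3 replicates per population, made as fractions of the same RNA. The table holds 1 FPKM, a fragment count normalized to transcript length and library size, per gene and population, with the libraries already combined. The spread between libraries is unknown, so the differences below have no replicate check and no test.

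In the developing cochlea, prosensory cells become either HCs or supporting cells (SCs). The basic helix-loop-helix (bHLH) factor Atoh1 starts the HC program, and Pou4f3, Gfi1, Barhl1 and Lhx3 act after it in the differentiation and survival of HCs. Insm1 and Ikzf2 belong to outer HCs, where Insm1 is a transient repressor that keeps nascent outer HCs from inner HC identity and Ikzf2 acts during maturation. Rfx1 and Rfx3 are winged-helix factors known for control of cilia genes, and HCs need them to survive. Notch effectors of the Hes and Hey families and the Id proteins oppose Atoh1 in SCs.

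RefSeq promoter windows (GRCm38.p6) were found for 6 of the 9 genes, and not for *Insm1*, *Ikzf2* and *Pou4f3*. The 250 bases before the annotated start of *Atoh1*, chr6:64728875-64729124 on the plus strand, are shown because its Notch repressors were measured in the same cells, with capitals marking CACGNG, a sequence bound by Hes and Hey factors. The 250 bases before the start of *Gfi1*, chr5:107725806-107726055 on the minus strand, are shown because *Gfi1* had the largest difference among the genes with a window, with capitals marking CAGNTG, an E-box bound by bHLH factors.
Atoh1: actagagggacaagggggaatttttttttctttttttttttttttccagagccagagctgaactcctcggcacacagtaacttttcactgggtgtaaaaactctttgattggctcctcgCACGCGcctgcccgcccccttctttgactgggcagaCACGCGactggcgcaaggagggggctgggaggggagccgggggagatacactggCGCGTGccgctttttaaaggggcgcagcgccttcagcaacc
Gfi1: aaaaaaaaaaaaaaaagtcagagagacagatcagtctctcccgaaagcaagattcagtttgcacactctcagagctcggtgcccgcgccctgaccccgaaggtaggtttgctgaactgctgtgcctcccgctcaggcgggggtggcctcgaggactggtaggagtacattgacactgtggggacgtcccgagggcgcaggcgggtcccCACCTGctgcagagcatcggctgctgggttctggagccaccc
On either strand, CACGNG was present 3 times in the *Atoh1* window and in none of the other 5 windows. Over all 32851 windows of this length, 23.5% held it at least once. CAGNTG was found 1 time in the windows of *Gfi1* and *Barhl1* and in none of the other 4, against 44.8% of all windows. The letters TGGGAA of an Rbpj site, GTTGCC of an Rfx site, TAATTA of a homeodomain site and AAATCA of a Gfi1 site were in none of the 6 windows, while 21.6%, 10.4%, 4.84% and 12.4% of all windows held them. These matches describe letters in a short window and not binding.

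All 9 TF genes reached 1 FPKM in both populations, and all 9 were higher in Lgr6+ progenitors. The largest differences were those of *Insm1* and *Gfi1*, and the smallest were those of *Lhx3* and *Atoh1*. A difference is given as log2(FPKM + 1) in Lgr6+ minus that in Lgr5+ progenitors, in which the added 1 understates the difference of low genes, and as the ratio of FPKM. The background was the 13436 genes that reached 1 FPKM in either population, called the kept genes. On this scale 5 of the 9 genes were past a 1.5-fold threshold toward Lgr6+ progenitors and none toward Lgr5+ progenitors, while among the kept genes 28.5% were past this threshold toward Lgr6+ and 23.3% toward Lgr5+ progenitors. Of the kept genes, 51.7% were higher in Lgr6+ progenitors by any amount. The median difference of the 9 genes was 0.64, against 0.03 over all kept genes.

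**Figure D1:**
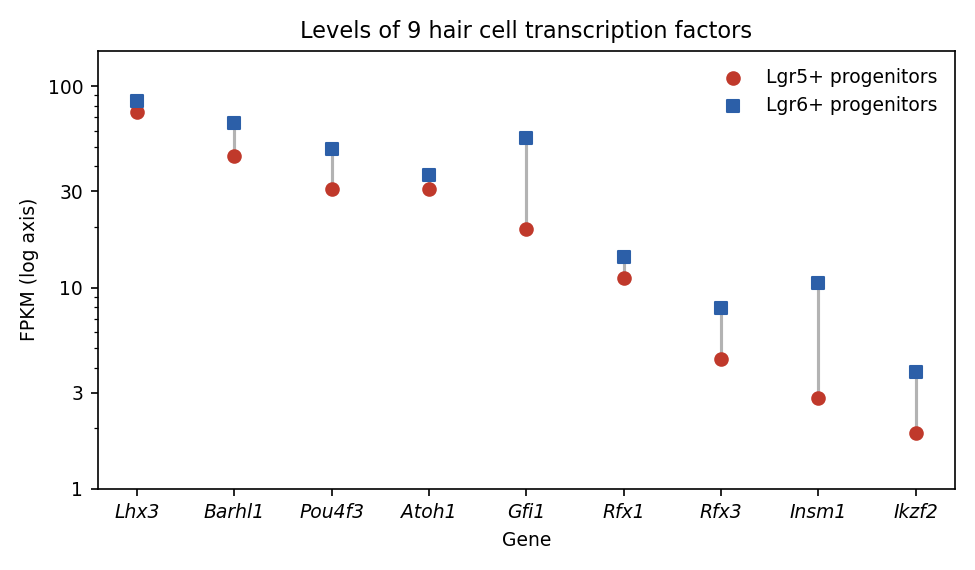
FPKM on a log axis of each of the 9 TF genes in Lgr5+ progenitors (circles) and Lgr6+ progenitors (squares), with 1 combined value per population and no error bars. Every square lies above its circle, from 74.2 and 84.7 for *Lhx3* down to 1.89 and 3.82 for *Ikzf2*, and the gap is widest for *Insm1* and *Gfi1*.

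*Atoh1* lies on chromosome 6 from 64729146 to 64731235. Its level was 30.9 FPKM in Lgr5+ and 36.4 FPKM in Lgr6+ progenitors, a ratio of 1.18 and a log2 difference of 0.23. This difference ranked at percentile 58.2 of the kept genes, close to the middle of the distribution. In level *Atoh1* stood at percentile 87.7 of all genes in Lgr5+ and 89.5 in Lgr6+ progenitors, so the founding HC factor was well above most genes in both. Percentiles of level include the genes listed at 0, which were 9439 in Lgr5+ and 8215 in Lgr6+ progenitors.

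*Pou4f3*, on chromosome 18 from 42394597 to 42396093, encodes a POU homeodomain factor that HCs need to survive. It reached 31.0 FPKM in Lgr5+ and 49.0 FPKM in Lgr6+ progenitors, a ratio of 1.58 and a log2 difference of 0.64. In Lgr5+ progenitors *Pou4f3* and *Atoh1* had nearly the same FPKM, with a ratio of *Pou4f3* to *Atoh1* of 1.005. In Lgr6+ progenitors that ratio was 1.35. The level of *Pou4f3* stood at percentile 87.8 of all genes in Lgr5+ and 92.0 in Lgr6+ progenitors, and its difference at percentile 73.3 of the kept genes. The paper measured this gene, under a Brn name, as a HC marker by quantitative PCR. It reported lower expression in sorted Lgr5+ and Lgr6+ cells than in Lgr5- and Lgr6- cells, respectively. Such negative cells have no values in the RNA-Seq table.

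*Gfi1*, on chromosome 5 from 107716655 to 107725805, encodes a zinc finger repressor that acts after Pou4f3 in HCs. Its level was 19.5 FPKM in Lgr5+ and 55.5 FPKM in Lgr6+ progenitors, a ratio of 2.84 and a log2 difference of 1.46. The difference lay at percentile 90.4 of the kept genes, and the level passed from percentile 82.2 of all genes to 92.9. *Gfi1* was at 0.633 times the FPKM of *Atoh1* in Lgr5+ and at 1.53 times in Lgr6+ progenitors, and this order does not depend on the scaling between the populations. Since *Gfi1* is also known from blood cells, leukocyte genes are given beside it. Of 12 macrophage and myeloid genes, 10 were kept and all 10 were past 1.5-fold toward Lgr6+ progenitors. This count is partly fixed by the filter. In all, 7 of the 12 genes were listed at 0 in Lgr5+ progenitors, and such a gene, if kept, is always past 1.5-fold. The list summed to an FPKM of 4.26 in Lgr5+ and 286 in Lgr6+ progenitors. *C1qb*, a complement gene of macrophages, was listed at 0 and at 69.9. The pan-leukocyte gene *Ptprc* was listed at 0 and at 0.00814, the myeloid factor gene *Spi1* at 0 and at 12.1, and the lymphoid factor genes *Ikzf1* and *Ikzf3* at 0 in both. The B cell gene *Cd79b* was listed at 0 in Lgr5+ and at 8.90 in Lgr6+ progenitors. The part of leukocytes in the *Gfi1* values was not tested.

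*Barhl1* and *Lhx3* encode homeodomain factors of HCs and had the highest levels of the 9 genes. *Barhl1*, on chromosome 2 from 28907680 to 28916440, measured 45.1 FPKM in Lgr5+ and 65.5 FPKM in Lgr6+ progenitors, a ratio of 1.45 and a log2 difference of 0.53. It lay just under the 1.5-fold threshold, which is 0.58 in log2, and *Pou4f3* just over it. *Barhl1* stood at percentile 91.1 of all genes in Lgr5+ and 93.8 in Lgr6+ progenitors, and its difference at percentile 69.3 of the kept genes. *Lhx3*, on chromosome 2 from 26200212 to 26208249, had 74.2 and 84.7, a ratio of 1.14 and a log2 difference of 0.19, the smallest of the 9. It stood at percentile 94.1 of all genes in Lgr5+ and 95.2 in Lgr6+ progenitors.

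The outer HC factors *Insm1* and *Ikzf2* were among the low genes of the set. *Insm1*, on chromosome 2 from 146221997 to 146225018, measured 2.83 FPKM in Lgr5+ and 10.5 FPKM in Lgr6+ progenitors, a ratio of 3.70 and a log2 difference of 1.58. This was the largest difference of the 9 genes, at percentile 91.9 of the kept genes, and moved *Insm1* from percentile 57.7 of all genes in level to percentile 72.9. *Ikzf2*, on chromosome 1 from 69531210 to 69685960, had 1.89 and 3.82, a ratio of 2.02 and a log2 difference of 0.74. It was the lowest of the 9 genes in both populations, at percentile 54.4 of all genes in Lgr5+ and 58.5 in Lgr6+ progenitors, while its difference stood at percentile 75.9 of the kept genes. Both values of *Ikzf2* were below the median FPKM of the kept genes, which was 9.40 in Lgr5+ and 9.95 in Lgr6+ progenitors.

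The maintenance factors differed between themselves. *Rfx3*, on chromosome 19 from 27761721 to 28011166, measured 4.42 FPKM in Lgr5+ and 7.92 FPKM in Lgr6+ progenitors, a ratio of 1.79 and a log2 difference of 0.72. *Rfx1*, on chromosome 8 from 84066836 to 84096992, had 11.2 and 14.3, a ratio of 1.28 and a log2 difference of 0.33, which was under 1.5-fold. The differences of *Rfx3* and *Rfx1* lay at percentiles 75.3 and 62.0 of the kept genes. *Rfx1* was thus the higher of the pair in both populations and *Rfx3* the one past the threshold.

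From the highest FPKM down, the order in Lgr5+ progenitors was *Lhx3*, *Barhl1*, *Pou4f3*, *Atoh1*, *Gfi1*, *Rfx1*, *Rfx3*, *Insm1* and *Ikzf2*. In Lgr6+ progenitors *Gfi1* ranked directly after *Barhl1*, ahead of *Pou4f3* and *Atoh1*, and *Insm1* stood ahead of *Rfx3*. With no spread between libraries, it cannot be said which neighbours in these orders differ. The summed FPKM of the 9 genes was 221 in Lgr5+ and 328 in Lgr6+ progenitors.

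**Figure D2:**
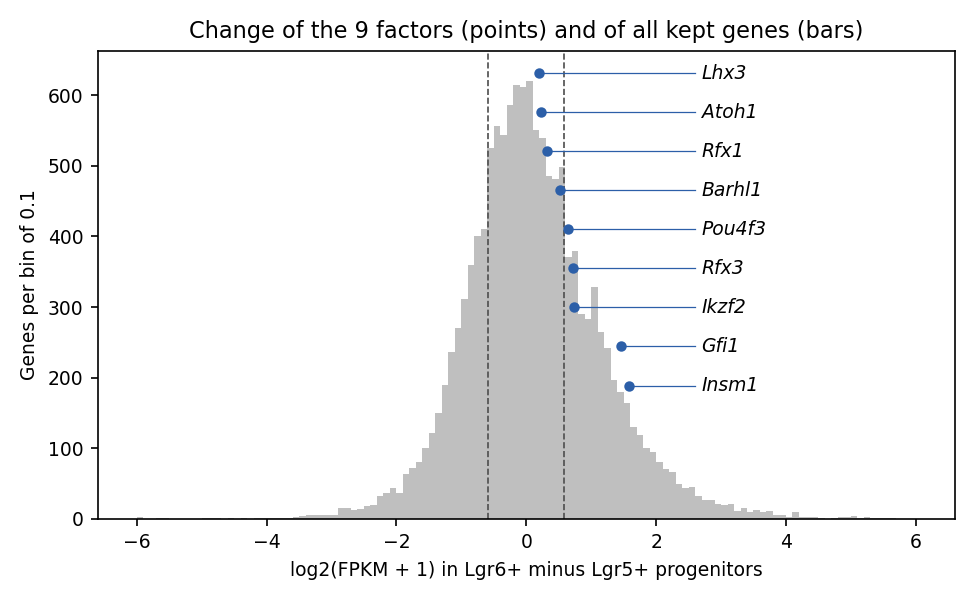
Histogram of log2(FPKM + 1) in Lgr6+ minus Lgr5+ progenitors over the 13436 kept genes (grey, bins of 0.1, values beyond 6 drawn at the end bins), with the 9 TF genes as points at their own value and at an arbitrary height. Dashed lines mark 1.5-fold. All 9 points lie right of 0, *Lhx3* at 0.19 near the peak and *Insm1* at 1.58 on the right slope.

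Low FPKM values fall on steps, which give a relative depth. For genes with 1 annotated transcript, FPKM was multiplied by the transcript length less 200 bases, expressed in kilobases. The products gave a step of 0.128 in Lgr5+ and of 0.0402 in Lgr6+ progenitors. The combined values thus rest on fewer fragments in Lgr5+ progenitors if a step is 1 fragment. In these units *Atoh1* corresponded to 454 steps in Lgr5+ and 1708 in Lgr6+ progenitors. *Insm1*, with the fewest steps of the 5 genes that have 1 transcript, corresponded to 63.9 and 755. *Pou4f3*, *Ikzf2* and *Rfx1* ran from 136 to 345 steps in Lgr5+ and from 877 to 1408 in Lgr6+ progenitors. Whether a step is 1 fragment is not given, so no counting interval is given.

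Genes that mark nascent HCs were mostly higher in Lgr6+ progenitors. Of 12 such genes, 11 were past 1.5-fold toward Lgr6+ and 1 toward Lgr5+ progenitors, against 28.5% and 23.3% of the kept genes. Their median log2 difference was 1.22. This list and those below were chosen with earlier results of these data known, so their counts are no independent support for the 9 genes. *Jag2*, a Notch ligand of HCs, measured 9.21 FPKM in Lgr5+ and 32.7 FPKM in Lgr6+ progenitors, a log2 difference of 1.72. *Pcp4*, a calmodulin regulator, had 1337 and 3277, and *Acbd7* had 394 and 1246. *Srrm4*, a splicing regulator of HCs, had 9.84 and 19.0. The exception was *Hes6*, a Hes family member induced in HCs, with 339 in Lgr5+ and 181 in Lgr6+ progenitors, a log2 difference of -0.90.

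Genes of HC function, a list chosen in the same way, were mostly higher in Lgr6+ progenitors. Of 28 genes, 26 were higher in Lgr6+ progenitors, 21 of them by at least 1.5-fold, and 1 was at least 1.5-fold higher in Lgr5+ progenitors. The shares of the kept genes past this threshold were 28.5% and 23.3%. The median log2 difference was 1.24, and the list summed to an FPKM of 2432 in Lgr5+ and 4128 in Lgr6+ progenitors. None of the 28 genes was listed at 0 in either population. *Myo7a*, the unconventional myosin used as HC marker, had 19.3 and 47.0. *Ocm*, the calcium buffer oncomodulin of outer HCs, had the largest difference with 15.3 and 268, a log2 difference of 4.05. *Cib2* of the mechanotransduction complex had 776 and 1051, while the calcium buffer gene *Pvalb* had 477 and 408 and *Tmie*, also of that complex, had 17.3 and 9.02.

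Set against these genes, 7 of the 9 TF genes had a log2 difference below the median of the 28 HC genes. *Insm1* and *Gfi1* were above it by 0.34 and 0.22, and *Lhx3* and *Atoh1* were below it by the most, with -1.05 and -1.01. Relative to *Myo7a* within each population, *Atoh1* was at 1.60 times in Lgr5+ and at 0.774 times in Lgr6+ progenitors, and *Lhx3* at 3.85 and 1.80 times. *Gfi1* was at 1.01 and 1.18 times, and *Insm1* at 0.147 and 0.223 times. The other 5 genes were all lower relative to *Myo7a* in Lgr6+ progenitors, *Barhl1* with 2.34 and 1.39 times, *Pou4f3* with 1.61 and 1.04 times, *Rfx1* with 0.579 and 0.303 times, *Rfx3* with 0.229 and 0.169 times and *Ikzf2* with 0.0982 and 0.0814 times. These comparisons depend on the reference gene. The ratio of Lgr6+ to Lgr5+ progenitors was 2.44 for *Myo7a* but 1.35 for *Cib2*. The latter lies under the ratios of *Barhl1*, *Pou4f3*, *Rfx3* and *Ikzf2* and above those of *Atoh1*, *Lhx3* and *Rfx1*. In sorted bulk samples, fewer cells of a type and less RNA per cell cannot be told apart. By immunostaining, the paper found no Myo7a+ cells among sorted Lgr5+ and Lgr6+ cells, marked in its text as data not shown, and nearly all stained for Sox2. The stained cells came from mice of postnatal day 3 or younger, and the sequenced RNA from postnatal day 3. The part of HCs in the sequenced RNA was not tested.

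**Figure D3:**
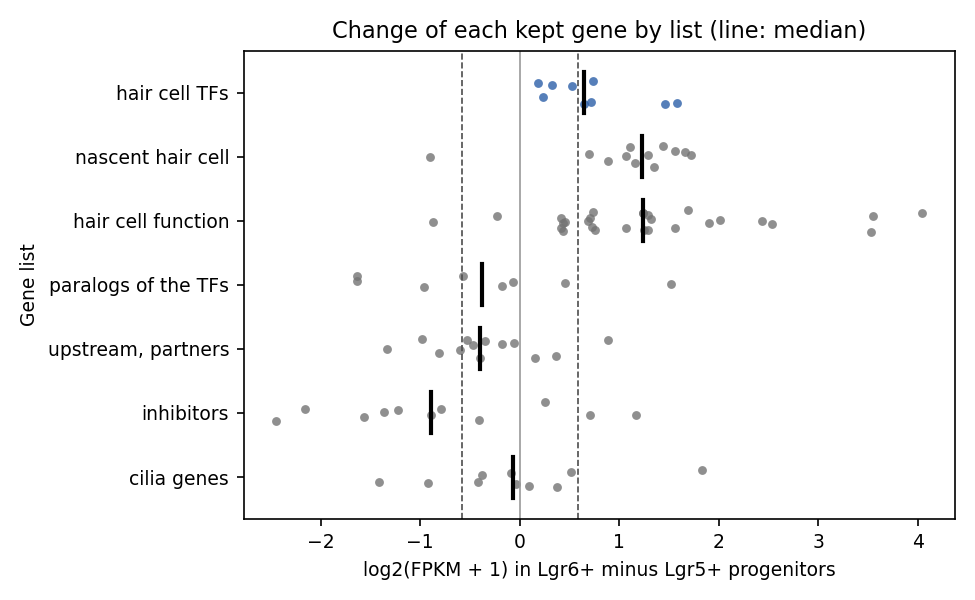
The log2(FPKM + 1) difference, Lgr6+ minus Lgr5+ progenitors, of each kept gene (points, with vertical jitter) in 7 gene lists, with the median of each list as a vertical line and dashed lines at 1.5-fold. The medians of the TF genes, the nascent HC genes and the HC function genes lie at 0.64, 1.22 and 1.24, and those of the inhibitors and of the upstream and partner genes at -0.89 and -0.40.

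Genes upstream of Atoh1 or partners of the 9 factors did not share this direction. Of 13 genes, 4 were past 1.5-fold toward Lgr5+ and 1 toward Lgr6+ progenitors, with a median log2 difference of -0.40. With FPKM scaled to the same sum in both populations, these counts were 2 and 2 and the median was -0.14. *Sox2*, the prosensory and SC factor needed for *Atoh1* expression, measured 140 FPKM in Lgr5+ and 54.8 FPKM in Lgr6+ progenitors, a log2 difference of -1.33, over a table interval that may hold more than this gene. *Gata3* had 276 and 157, and the LIM homeodomain gene *Isl1* had 233 and 117. The gene past the threshold toward Lgr6+ progenitors was *Srrm4*, which is also among the nascent HC genes.

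Inhibitors of Atoh1 and of HC differentiation were mostly higher in Lgr5+ progenitors, by at least 1.5-fold in 7 of 11 genes, while 3 were higher in Lgr6+ progenitors, 2 of them by at least 1.5-fold, with a median log2 difference of -0.89. The Notch effector *Hes5* had 505 in Lgr5+ and 91.7 in Lgr6+ progenitors, a log2 difference of -2.45. *Id1* had 1143 and 488, *Id3* had 1523 and 878, and *Id4* had 22.4 and 51.8. The table interval of *Id4*, from 48044231 to 48264036 on chromosome 13, may hold more than this gene. *Rest*, which represses neuronal and HC genes and was named after its value was seen, had 21.2 and 6.51, a log2 difference of -1.56. *Srrm4*, which inactivates *Rest* by splicing in HCs, was higher in Lgr6+ progenitors. FPKM per gene does not show splicing, and a link between these values was not tested.

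Of 18 paralogs of the 9 genes, 8 were kept and 9 were listed at 0 in both populations, the latter including *Gfi1b*, *Lhx4* and *Atoh7*. The kept paralogs had a median log2 difference of -0.38, which was -0.64 without a pseudocount and -0.15 with the same sum, with 3 past 1.5-fold toward Lgr5+ and 1 toward Lgr6+ progenitors. These 4 were each under 1 FPKM in the other population. *Insm2*, the paralog of *Insm1*, was listed at 0 in Lgr5+ and at 1.87 FPKM in Lgr6+ progenitors. *Ikzf4*, the paralog of *Ikzf2*, had 3.42 in Lgr5+ and 0.426 in Lgr6+ progenitors, *Atoh8* had 2.92 and 0.263, and *Pou4f1*, a factor of spiral ganglion neurons, had 1.20 and 0.127. The *Rfx* paralogs *Rfx2*, *Rfx5* and *Rfx7* had 2.39, 9.98 and 5.90 in Lgr5+ and 3.64, 6.39 and 5.09 in Lgr6+ progenitors, and *Ikzf5* had 6.90 and 6.56. None of these last 4 genes was past 1.5-fold on the log2(FPKM + 1) scale.

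Cilia genes, a class that Rfx factors are known to regulate, were described beside *Rfx1* and *Rfx3*. Of 10 genes, 1 was past 1.5-fold toward Lgr6+ and 2 toward Lgr5+ progenitors, and the median log2 difference was -0.06, which turned to 0.19 with FPKM scaled to the same sum and to 0.0403 after quantile normalization. *Ift172*, of the intraflagellar transport complex, had 7.85 in Lgr5+ and 30.5 in Lgr6+ progenitors. Its table interval, from 30933143 to 31348845 on chromosome 5, may hold more than this gene. *Tmem17* of the ciliary transition zone had 22.1 and 7.65, *Bbs5* had 67.8 and 88.4, and *Cetn2* had 216 and 203.

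The populations also differed in genes that bear on their identity. *Lgr5* was higher in the Lgr6+ than in the Lgr5+ progenitors, with an FPKM of 25.0 against 9.65, and *Lgr6* had 2.90 against 2.06. *Lgr5* was thus higher in the population not named for it, and the paper describes Lgr6+ cells as part of the Lgr5+ population. Whether the reporter alleles, the make-up of the populations or the labels have a part in this was not tested. Of 17 SC genes, all were above 0 in both populations, with 6 past 1.5-fold toward Lgr5+ and 2 toward Lgr6+ progenitors and a median log2 difference of -0.32. *S100a1* had 2959 in Lgr5+ and 3177 in Lgr6+ progenitors, and *Tectb* had 1347 and 813. Of 12 neuronal genes 9 were kept, with 2 past 1.5-fold toward Lgr6+ and 3 toward Lgr5+ progenitors, and the factor genes *Neurog1* and *Neurod1* at or near 0. *Snap25*, a synaptic gene, had the largest difference of the neuronal genes with 7.63 in Lgr5+ and 53.4 in Lgr6+ progenitors, the neurofilament gene *Nefm* had 60.2 and 45.2, and the tubulin gene *Tubb3* had 1.18 and 0.0959. Erythroid, glial and mesenchymal genes summed to 630, 33.8 and 48.7 in Lgr5+ and to 108, 147 and 159 in Lgr6+ progenitors. Of 6 lymphoid genes 3 were listed at 0 in both, and the list summed to 19.5 and 18.9. *Cd79a* and *Cd79b*, listed at 0 in Lgr5+ and so kept only through Lgr6+ progenitors, were past 1.5-fold toward Lgr6+ and *Lck* toward Lgr5+ progenitors. The part of these cells in the 9 TF values was not tested.

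The 9 differences kept their direction under each scaling that was tried, though scaling to the same sum could not have reversed them. Dividing FPKM by its sum, which was 754163 in Lgr5+ and 627932 in Lgr6+ progenitors, moved the median difference of all kept genes from 0.03 to 0.30 and that of the 9 genes to 0.91. Of the 9 TF genes 6 were then past 1.5-fold toward Lgr6+ progenitors, against 38.7% of the kept genes. After quantile normalization 4 genes were past it, against 24.7% of the kept genes, *Barhl1* with 0.599 among them and *Ikzf2* and *Rfx3*, with 0.464 and 0.568, not. *Atoh1*, *Lhx3* and *Rfx1* were under 1.5-fold under each of the alternatives. With the same sum, however, *Rfx1* was at 0.584, almost on the threshold of 0.585.

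**Figure D4:**
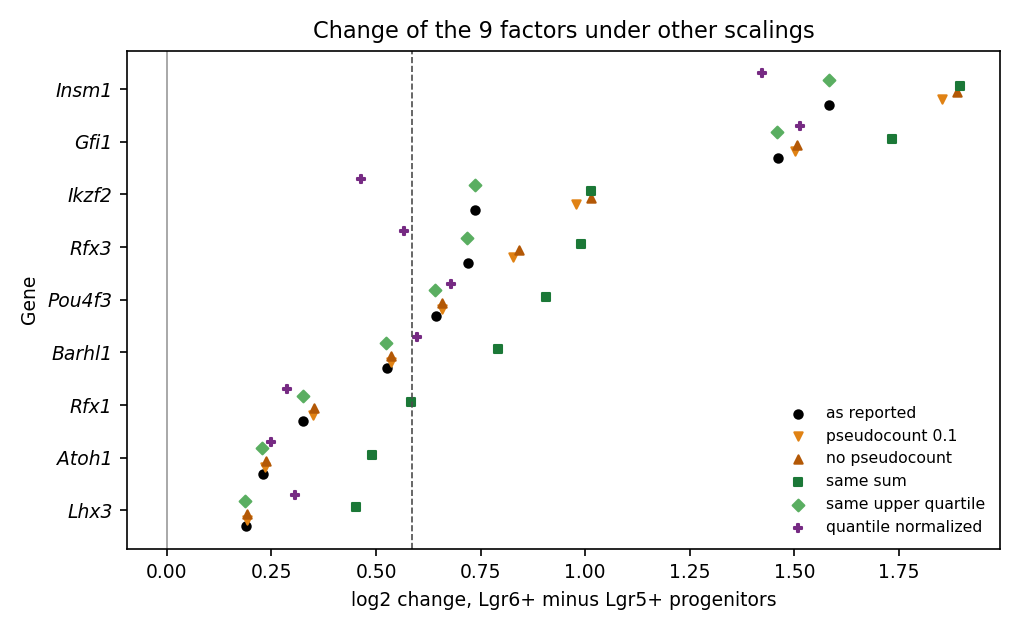
The log2 difference, Lgr6+ minus Lgr5+ progenitors, of each of the 9 TF genes as reported and with another pseudocount or scaling between the populations (symbols). The dashed line marks 1.5-fold. Every symbol lies right of 0, from 0.19 for *Lhx3* to 1.90 for *Insm1*, and those of *Barhl1*, *Rfx3* and *Ikzf2* lie on both sides of the dashed line.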

How the data were processed

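The starting point was the processed RNA-Seq table of sorted Lgr5+ and Lgr6+ progenitors. According to the methods, the authors used a SMART-Seq v4 low-input kit, Trimmomatic for trimming, TopHat for mapping, RefGene for annotation and Cufflinks for FPKM, with versions not given in the sources used here. The authors deposited 1 FPKM per gene and population, in which the libraries are combined and transcript length and library size are taken into account. The log2 fold changes, p-values and q-values of the authors' own comparison are also in the table and were not used.

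The paper names mm9 and the submitters' processing notes name mm10. Of 19493 genes, the intervals of the table overlapped the gene for 99.1% in GRCm38 (mm10) and for 12.7% in NCBIM37 (mm9), so positions are given as GRCm38, counted from 1.

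Genes that reached 1 FPKM in either population were kept, and the log2(FPKM + 1) difference was called past 1.5-fold. The planned limma fit was not run because there is 1 value per population. The 9 genes and the lists were chosen with earlier results of these data known. Named genes were the 9 TF genes, *Lgr5*, *Lgr6*, *Sox2*, all kept paralogs, and in other lists the 2 highest genes and the largest difference in each direction. Of the lists of other cell types the sums and counts are given in place of most of these genes. *Myo7a*, *Rest*, *Ptprc*, *Spi1*, *Cd79a*, *Neurog1*, *Neurod1* and the paralogs listed at 0 were named outside this rule. Alternatives were a pseudocount of 0.1 or none, other scalings, filters and a 2-fold threshold. Motifs were searched in the 250 bases before the start in RefSeq promoter windows. Scripts ran under Python 3.11.15 with scipy 1.17.1, pandas 2.3.3 and numpy 2.4.6. The calling was checked on the higher Lgr5+ values, into which known 2-fold changes without noise were put. Low values were not part of this check. Read counts per library were not analysed here, and from the table only relative steps of depth were read.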

Additional observations from a re-analysis of the deposited data

How the results depend on the processing

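Of the 9 alternatives, those that change the filter, the pseudocount or the fold threshold cannot change the sign of a difference. Scaling to the same sum could only raise the differences here. Under upper-quartile scaling and quantile normalization, which could have reversed a direction, all 9 TF genes stayed higher in Lgr6+ progenitors. *Ikzf2* was not kept at a minimum FPKM of 5. The differences of *Insm1* ran from 1.42 to 1.90, of *Gfi1* from 1.46 to 1.73, of *Atoh1* from 0.23 to 0.49 and of *Lhx3* from 0.19 to 0.45. With a 2-fold threshold, 2 of the 9 TF genes were past it, *Insm1* and *Gfi1*, against 18.2% of the kept genes. At 2-fold the lists held fewer genes past the threshold by construction, with 0 of the upstream and partner genes higher in Lgr6+ and 1 higher in Lgr5+ progenitors, 1 inhibitor higher in Lgr6+, 0 nascent HC genes and 0 HC function genes higher in Lgr5+, and 1 cilia gene higher in Lgr5+ progenitors. When FPKM was scaled to the same sum, 2 paralogs, 2 upstream and partner genes and 3 cilia genes were past 1.5-fold toward Lgr6+ progenitors and 2 upstream and partner genes toward Lgr5+ progenitors. With a minimum FPKM of 5, or with 1 in both populations, 0 paralogs were past it in either direction. The median of the cilia genes turned from -0.06 to 0.19 with the same sum and to 0.0403 after quantile normalization, and the cause of the latter was not tested. The share of genes past 1.5-fold that were higher in Lgr6+ progenitors moved from 54.96% to 69.7% with the same sum, to 48.2% after quantile normalization and to 48.7% with at least 1 FPKM in both populations. The median of the paralogs was -0.64 without a pseudocount and 0 without a filter, where those listed at 0 in both enter. The count of kept genes at least 2-fold apart was 2443 toward Lgr6+ and 1575 toward Lgr5+ progenitors, against 3826 and 3136 at 1.5-fold. No paired analysis was possible because the deposited values combine the libraries of a population, and for the same reason no library could be left out. The size of the differences against the spread between libraries, and that between animals, cannot be judged from 1 combined value each.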
